A study of Mus musculus with 8 samples.

Results

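Messenger RNA levels of 7 genes were followed in the lateral ganglionic eminence (LGE) of mouse embryos with and without a conditional deletion of Isl1. They were picked by symbol and comprised the genes of acetylcholine synthesis and transport Chat, Slc18a3 and Slc5a7, the vesicular glutamate transporter gene Slc17a8, the acetylcholinesterase gene Ache, and the homeobox genes Gbx1 and Gbx2. All 7 were among the 15705 genes listed and among the 15698 that could be tested. The libraries were made from polyadenylated RNA of the LGE at stage E18.5, shortly before birth. The knockout group (cKO, 4 libraries) carried Dlx1-Cre with 2 floxed Isl1 alleles, and the control group (4 libraries) carried the floxed alleles without Cre. Embryos of both groups came from one kind of cross and were typed on tail tissue. The labels give neither litter nor sex and do not say how many embryos a library holds, so p-values measure the spread between these libraries. Recombination is limited to cells in which the Dlx1-driven recombinase is or was active, and because Cre was present in the cKO alone, its presence and the deletion cannot be told apart.

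Acetylcholine is made from choline and acetyl-CoA by choline acetyltransferase, packed into vesicles by the vesicular acetylcholine transporter, split in the synaptic cleft by acetylcholinesterase, and its choline is taken back up by the high-affinity choline transporter. In the striatum, which forms largely from the LGE, the main local source is a sparse class of cholinergic interneurons that migrate in from more ventral progenitor zones and that also carry a vesicular glutamate transporter. Isl1 and the LIM-homeodomain factor Lhx8 are known regulators of this cell type in the mouse, and the Gbx homeobox factors are known from ventral forebrain cholinergic neurons and, for Gbx2, from the thalamus.

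The values analysed are adjusted read values per gene, rounded to whole numbers by the authors. Their sums lay between 23732455 and 24456923 per library as a result of scaling, so the sequencing depth is unknown and no counting interval is given. Isl1 itself did not check the genotype labels, since there is 1 value per gene and the deleted exons are not given. It was at 5474 ± 437 in the libraries labelled cKO and 3793 ± 283 in those labelled control (SD, n = 4 each). Every direction below rests on those labels. All 11 listed markers of striatal projection neurons were detected, with summed values of 64198 to 71426 in the cKO and 69225 to 73590 in the controls. Of 9 pallial neuron markers 1 rose, where 2.87% of all tested genes rose (limma adjusted p under 0.05). Summed pallial values were 615 to 1582 in the cKO and 144 to 1487 in the controls, lowest in cKO replicate 4 and control replicate 3. Microglial markers moved with genotype, with 7 of 9 risen against the same 2.87% of all tested genes. Microglial sums were 2176 to 2732 in the cKO and 1399 to 1609 in the controls. Their part in the results below was not tested.

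The start regions of 5 genes are shown because their genes fell together in the cKO. Each window runs from 250 bases before to 50 bases after a RefSeq start on GRCm38.p6, 5′ to 3′ on the minus strand, which is the sense strand of all 5 genes. Capitals mark the first 50 bases of the transcript. The first pair belongs to the locus that Chat and Slc18a3 share.
Chat, chr14:32465860-32466159: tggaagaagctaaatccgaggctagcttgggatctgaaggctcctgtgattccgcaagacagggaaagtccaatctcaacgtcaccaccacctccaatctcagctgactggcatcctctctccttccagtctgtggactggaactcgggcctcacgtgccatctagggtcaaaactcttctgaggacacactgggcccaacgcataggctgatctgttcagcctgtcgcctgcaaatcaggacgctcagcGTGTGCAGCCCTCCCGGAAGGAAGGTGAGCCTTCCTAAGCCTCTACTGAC
Slc18a3, chr14:32464801-32465100: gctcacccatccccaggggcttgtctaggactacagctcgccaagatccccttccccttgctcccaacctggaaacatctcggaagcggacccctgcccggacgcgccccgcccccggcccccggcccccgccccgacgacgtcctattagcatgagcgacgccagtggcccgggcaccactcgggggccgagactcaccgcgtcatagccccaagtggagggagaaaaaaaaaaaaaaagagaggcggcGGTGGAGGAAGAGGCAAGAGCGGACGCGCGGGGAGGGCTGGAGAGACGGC
Slc5a7, chr17:54298985-54299284: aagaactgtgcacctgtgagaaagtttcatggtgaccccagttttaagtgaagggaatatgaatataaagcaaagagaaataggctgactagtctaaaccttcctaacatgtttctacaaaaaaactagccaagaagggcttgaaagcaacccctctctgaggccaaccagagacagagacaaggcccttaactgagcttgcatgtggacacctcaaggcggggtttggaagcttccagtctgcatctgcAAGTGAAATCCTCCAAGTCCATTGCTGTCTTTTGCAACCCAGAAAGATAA
Slc17a8, chr10:89621200-89621499: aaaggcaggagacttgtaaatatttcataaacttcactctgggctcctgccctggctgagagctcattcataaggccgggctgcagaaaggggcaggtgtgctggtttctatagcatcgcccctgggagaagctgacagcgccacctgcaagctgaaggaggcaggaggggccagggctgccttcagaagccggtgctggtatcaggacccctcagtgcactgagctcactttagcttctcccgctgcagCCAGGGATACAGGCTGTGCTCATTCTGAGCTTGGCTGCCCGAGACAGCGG
Gbx2, chr1:89931127-89931426: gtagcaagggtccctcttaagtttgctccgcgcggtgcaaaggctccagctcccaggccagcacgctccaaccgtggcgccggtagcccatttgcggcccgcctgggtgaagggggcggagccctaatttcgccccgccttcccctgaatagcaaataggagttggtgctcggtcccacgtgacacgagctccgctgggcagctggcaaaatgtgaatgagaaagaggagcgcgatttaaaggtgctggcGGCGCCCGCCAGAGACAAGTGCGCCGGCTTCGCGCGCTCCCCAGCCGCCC

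These windows differ widely in composition. The Slc18a3 window held 67.0% G and C and 27 CG dinucleotides, and the Gbx2 window 64.7% and 27. The Slc5a7 window held 44.7% and a single CG dinucleotide, with the Chat window between them at 55.7% and 10 and the Slc17a8 window at 58.0% and 7. The median over 32851 windows was 52.7% and 7. Homeodomain core motifs were searched on both strands. TAATTA, which reads the same on both strands, was in none of the 5 windows, against 5.29% of all windows. CTAATG, searched also as its reverse complement, was in none of them either, against 7.36% of all windows. A second annotated start of Slc17a8 held TAATTA at 141 bases before the start, in ttgtaaacagagTAATTAtttgagagtctg (chr10:89599939-89599968, minus strand, motif in capitals). The Ache window, at 74.0% G and C, held neither motif.

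Of the 7 genes, 5 fell in the cKO and none rose (limma, Benjamini-Hochberg adjusted p under 0.05 over all tested genes), where 3.78% of all tested genes fell and 2.87% rose (6.66% in either direction). At an unadjusted p under 0.05 Ache had fallen as well and none of the 7 had risen. The authors' deposited table also called 5 fallen and none risen, with 6.55% of all genes called there. The cKO values lay below every control value in the same 5 genes, Chat, Slc18a3, Slc5a7, Slc17a8 and Gbx2, and in 6.33% of all tested genes. The median log2 fold change of the 7 genes was -2.29, against 0.01 over all tested genes. In dissected tissue, fewer cells of a type and less RNA per cell cannot be told apart.

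**Figure D1:**
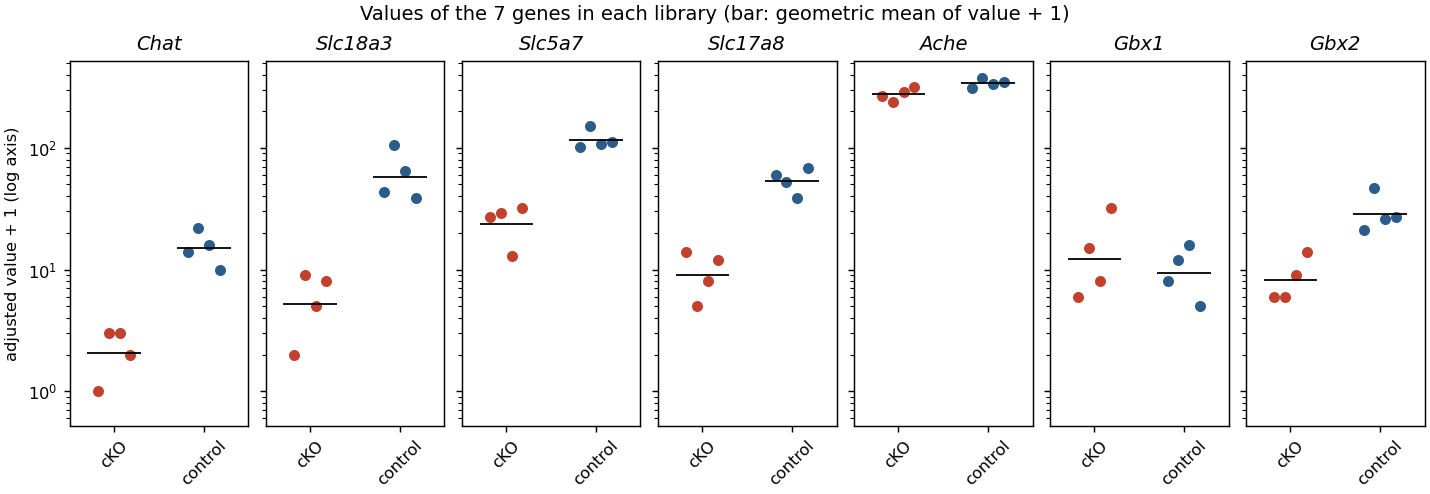
Adjusted values plus 1 on a log axis for the 7 genes, with 1 point per library, 4 cKO libraries on the left of each panel and 4 control libraries on the right, and a bar at the geometric mean. The cKO points lie below all control points for Chat, Slc18a3, Slc5a7, Slc17a8 and Gbx2, and the groups overlap for Ache and Gbx1.

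Chat, the enzyme of acetylcholine synthesis, was close to the lower end of what was measured. It had values of 0, 2, 2 and 1 in the cKO and of 13, 21, 15 and 9 in the controls. Every cKO library was therefore below every control library, and a Chat value was listed at 0 in a cKO library only. Its log2 fold change was -2.85 ± 0.43 (SE, limma adjusted p = 0.00158), and its mean fell to 1.25 ± 0.957 in the cKO, against 14.5 ± 5 in the controls (SD, n = 4 each). Chat passed the filter on low values with 7 of 8 libraries at 1 or more.

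Slc18a3, the vesicular acetylcholine transporter, had values of 1, 8, 4 and 7 in the cKO and of 42, 104, 63 and 38 in the controls. The lowest control was 4.75 times the highest cKO library. Its log2 fold change, -3.48 ± 0.47 (limma adjusted p = 0.000706), was the 7th lowest among all tested genes. The cKO mean was 8.10% of the control mean for Slc18a3, and 8.62% for Chat.

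Chat and Slc18a3 form the cholinergic gene locus. Chat (ENSMUSG00000021919.8) spans chr14:32408203-32465989 and Slc18a3 (ENSMUSG00000100241.1) spans chr14:32462438-32464850, both on the minus strand of GRCm38. Slc18a3 starts 1139 bases downstream of the most upstream Chat start and lies inside the first intron of 4 of the 8 annotated Chat transcripts. None of the annotated Chat exons overlaps it, so reads over exons can be told apart. The nearest tested genes outside the locus did not pass, with log2 fold changes of 0.01 ± 0.05 for Ogdhl and 0.04 ± 0.04 for Ercc6 (SE).

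**Figure D2:**
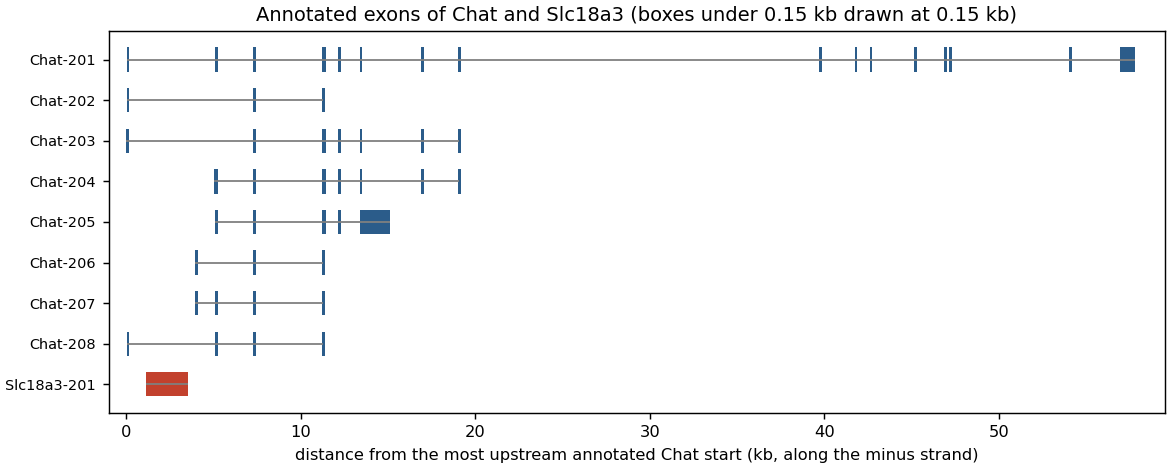
Annotated exons (boxes) and introns (lines) of 8 Chat transcripts and of Slc18a3, by distance in kilobases from the most upstream Chat start along the minus strand. The Slc18a3 exon, drawn in red at the bottom, sits 1139 bases from that start and overlaps none of the Chat exons in blue.

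Slc5a7, the high-affinity choline transporter, was the most precisely measured of the 5 genes that fell. Its values were 26, 28, 12 and 31 in the cKO and 100, 151, 106 and 111 in the controls. The groups were separated by a gap of 3.23-fold between the highest cKO and the lowest control library. The log2 fold change was -2.29 ± 0.26 (SE, limma adjusted p = 0.000241), with a 95% interval of -2.86 to -1.71, and the cKO mean was 20.7% of the control mean. Slc5a7 (chr17:54273590-54299034) stands far from other tested genes. Kat2b, 600869 bases away, had a log2 fold change of -0.02 ± 0.04 and St6gal2, 1146347 bases away, of -0.05 ± 0.04.

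Slc17a8 encodes VGLUT3, through which cholinergic interneurons load glutamate into vesicles. Its values were 13, 4, 7 and 11 in the cKO and 59, 51, 38 and 67 in the controls. No cKO library reached the lowest control library. Its log2 fold change was -2.57 ± 0.32 (SE, limma adjusted p = 0.000424), and the cKO mean was 16.3% of the control mean. At its locus (chr10:89574020-89621253), the neighbours Gas2l3 and Scyl2 had log2 fold changes of 0.03 ± 0.06 and 0.03 ± 0.04.

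Other vesicular transmitter transporters, listed for comparison, did not pass, at 0 of 4 tested genes by limma, 0 at an unadjusted p under 0.05 and 0 in the authors' deposited table. Slc32a1, the vesicular GABA transporter used by most striatal neurons, was at 3273 ± 131 in the cKO and 3115 ± 69.5 in the controls (SD, n = 4 each), a log2 fold change of 0.07 ± 0.04 (SE). The vesicular monoamine transporter gene Slc18a2, a family member of Slc18a3, had a log2 fold change of 0.09 ± 0.09. Slc17a6 and Slc17a7, which encode VGLUT2 and VGLUT1, had log2 fold changes of -0.65 ± 0.53 and -0.49 ± 0.66, too wide to place. These 4 genes were not compared with Slc17a8 or Slc18a3 by a test.

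Ache, the acetylcholinesterase gene, had values of 268, 239, 288 and 316 in the cKO and of 308, 376, 334 and 345 in the controls. The groups overlapped through cKO replicate 4 and control replicate 1 alone. The cKO mean was 278 ± 32.5 and the control mean 341 ± 28.2 (SD, n = 4 each). The log2 fold change of Ache was -0.30 ± 0.09 with a 95% interval of -0.50 to -0.09. It did not pass (limma unadjusted p = 0.00857, adjusted p = 0.0933), and none of 18 alternatives called it, with adjusted p between 0.0558 and 0.226. Red blood cells also carry acetylcholinesterase. Of 7 erythroid markers, 3 rose, but Hba-a1 and Hba-a2 have identical values in every library and are 1 measurement. Counted once, 2 of 6 rose, where 2.87% of all tested genes did. Summed values of the 6 were 8563 to 12024 in the cKO and 5804 to 9644 in the controls. Of the 8 fits without 1 library, 5 did not call Hba-a1 and 2 did not call Hbb-bt. The part of these markers in the Ache values was not tested. Ufsp1, which begins 162 bases past the end of Ache (chr5:137287519-137294466, plus strand), had a log2 fold change of -0.17 ± 0.15.

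Gbx2 fell, and Gbx1 was too variable to place. Gbx2 (chr1:89927956-89931179) had values of 5, 5, 8 and 13 in the cKO and of 20, 46, 25 and 26 in the controls. The groups did not overlap, with the highest cKO library at 13 and the lowest control at 20. Gbx2 had a log2 fold change of -1.81 ± 0.34 (SE, limma adjusted p = 0.00649). Among markers of the thalamus and habenula, where Gbx2 is also known, none of 8 tested genes passed by limma or in the authors' deposited table and 1 had an unadjusted p under 0.05. Their summed values were 2567 to 2828 in the cKO and 2505 to 3150 in the controls. The sum of 3150 was in control replicate 2, the library with the highest Gbx2 value (46), against 2505 to 2708 in the other controls. Single markers stood further apart there, with Tcf7l2 at 404 against 131 to 210 in the other controls, and Nr2f2 at 656 against 351 to 446. Slc17a6, Pou4f1 and Calb2 were highest there too, while Lhx2, Rora and Prox1 were not. Without control replicate 2 Gbx2 still fell, by 1.58 on the log2 scale (limma adjusted p = 0.0181). The part of these markers in the Gbx2 values was not tested.

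Gbx1 (chr5:24502757-24527202, minus strand) had values of 5, 14, 7 and 31 in the cKO and of 7, 11, 15 and 4 in the controls. The groups overlapped almost entirely. The log2 fold change of Gbx1 was 0.40 ± 0.52, with a 95% interval from -0.74 to 1.54 that includes falls and rises (adjusted p = 0.755). It turned to -0.063 without cKO replicate 4 and was -0.11 in the authors' deposited table. Its neighbour Agap3 had a log2 fold change of 0.06 ± 0.03, and Agap1 beside Gbx2 of 0.01 ± 0.05. Over all 12 tested neighbours of the 7 genes, none passed by limma, none had an unadjusted p under 0.05 and none was called in the authors' deposited table, with log2 fold changes between -0.17 and 0.18.

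**Figure D3:**
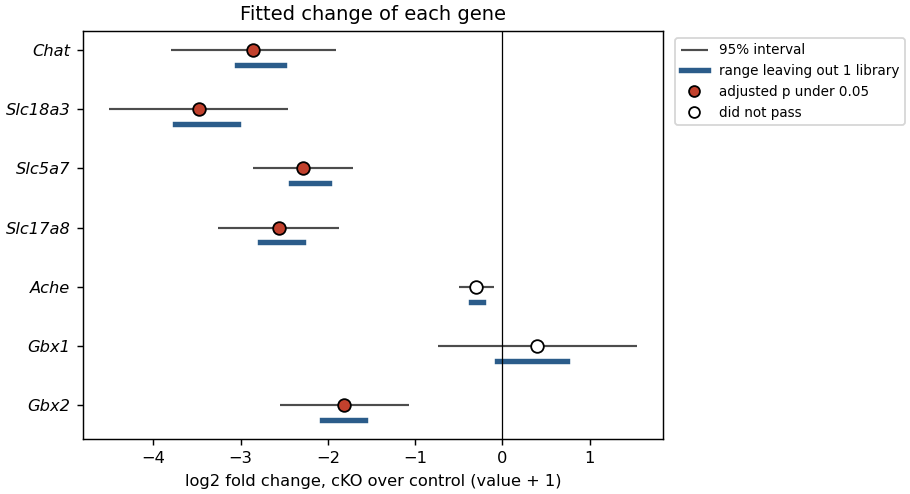
Fitted log2 fold changes (cKO over control) of the 7 genes on the value + 1 scale, with 95% intervals (thin lines), filled points for an adjusted p under 0.05, and the range of estimates when 1 library is left out (thick lines). The 5 filled points lie between -3.48 and -1.81, and the range for Gbx1 crosses 0.

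An exact two-sided permutation of the 8 values over 70 assignments gave p = 0.0286, the smallest that 4 against 4 libraries allow, for each of the 5 genes that fell. It gave p = 0.0571 for Ache and p = 0.629 for Gbx1 in the same exact test. With low values the size of a log2 fold change depends on the pseudocount, while no alternative that could be fitted ended any of the 5 calls. With a pseudocount of 5 the estimate was -1.62 for Chat and -2.70 for Slc18a3. On the RPKM scale with a pseudocount of 0.1 it was -1.38 for Chat, -2.60 for Slc18a3 and -1.70 for Slc17a8, and the authors' deposited table gave -3.43 for Chat.

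Per length, the 7 genes covered a wide range of levels. In the authors' RPKM values, Ache was the most abundant in both groups, at 5.17 ± 0.584 in the cKO and 6.38 ± 0.464 in the controls (SD, n = 4 each), and Chat the least, at 0.0183 ± 0.0141 in the cKO and 0.213 ± 0.0716 in the controls. Between them in the controls stood Slc18a3 at 1.06 ± 0.506, Slc5a7 at 0.935 ± 0.176, Gbx2 at 0.568 ± 0.217, Slc17a8 at 0.473 ± 0.113 and Gbx1 at 0.263 ± 0.134. Apart from Ache above Slc18a3, each of these overlapped the next in its range over control libraries. In the cKO the RPKM order was Ache, Gbx1 (0.403 ± 0.332), Slc5a7 (0.193 ± 0.0665), Gbx2 (0.15 ± 0.0722), Slc18a3 (0.0853 ± 0.0539), Slc17a8 (0.0764 ± 0.0351) and Chat. There only Ache above Gbx1 and Slc17a8 above Chat were separated in their ranges over cKO libraries. By RPKM, Slc18a3 stood at the 21.2 percentile of tested genes in the controls, and its cKO level at the 3.85 percentile. Chat stood at the 0.255 percentile in the cKO and the 9.02 percentile in the controls.

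How far pairs of these genes moved relative to each other was tested as 5 ratios within a library. The log2 ratio of Ache to Slc5a7 was 3.54 ± 0.637 in the cKO and 1.55 ± 0.160 in the controls (SD, n = 4 each), and no library of a group reached the other group. The log2 ratio of Gbx2 to Gbx1 was -0.59 ± 0.780 in the cKO and 1.62 ± 0.748 in the controls, again without overlap. Both gave p = 0.0286 in the exact permutation test and an adjusted p of 0.0714 over the 5 ratios, so neither passed. Since 0.0286 is the smallest p possible, at least 3 of the 5 ratios must reach it for any to pass, and an adjusted p of 0.0714 was the lowest that a pair could give. With a pseudocount of 5 the ratio of Chat to Slc18a3 reached it too, and all 3 then had an adjusted p of 0.0476 in the exact test. Without a pseudocount, the cKO mean was a like share of the control mean in both genes, 8.62% for Chat and 8.10% for Slc18a3. The size of that ratio difference therefore depends on the pseudocount. The ratio of Chat to Slc18a3, -1.33 ± 0.570 in the cKO and -1.96 ± 0.261 in the controls, had an adjusted p of 0.179 in the exact test with a pseudocount of 1. The ratio of Slc18a3 to Slc5a7 (-2.21 ± 1.06 in the cKO, -1.01 ± 0.451 in the controls) and that of Slc17a8 to Slc5a7 (-1.40 ± 0.813 in the cKO, -1.12 ± 0.444 in the controls) had adjusted p-values of 0.0952 and 0.629 in the exact test. Without cKO replicate 3, the ratios of Slc18a3 to Slc5a7, Ache to Slc5a7 and Gbx2 to Gbx1 passed together (adjusted p = 0.0476, exact test).

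**Figure D4:**
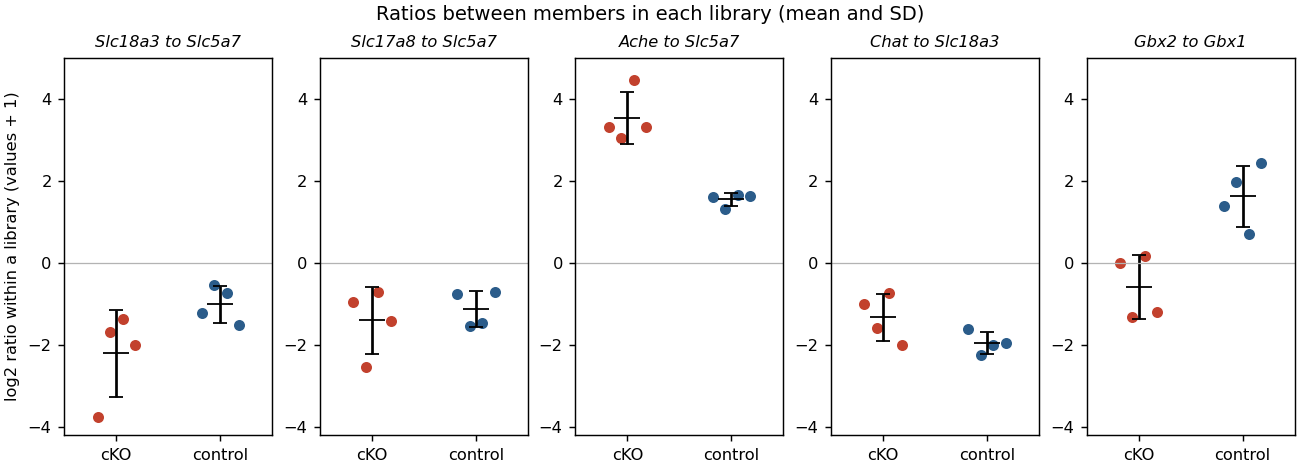
Log2 ratios of 5 pairs of the genes within each library (values + 1), with cKO on the left and control on the right of each panel, 1 point per library and the mean with SD over 4 libraries. The groups are separated for Ache to Slc5a7 and Gbx2 to Gbx1, and overlap for the other three.

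Genes that handle choline, supply acetyl-CoA or end acetylcholine signalling fell in part. Of 17 tested list members, 4 fell and none rose, where 3.78% and 2.87% of all tested genes did. Their median log2 fold change was -0.02. The authors' deposited table called Prima1, Slc10a4, Slc44a5 and Colq, where 6.55% of all genes were called in either direction. Prima1, the membrane anchor of acetylcholinesterase in brain, had values of 4, 4, 8 and 10 in the cKO and of 24, 46, 27 and 29 in the controls. No cKO library reached the lowest control, and the log2 fold change was -2.16 ± 0.32 (SE, limma adjusted p = 0.00147). Slc10a4, a synaptic vesicle protein of cholinergic and monoaminergic neurons, fell to 107 ± 25.3 in the cKO, against 244 ± 39.7 in the controls (SD, n = 4 each), a log2 fold change of -1.21 ± 0.18 (adjusted p = 0.00140).

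Slc44a5, a choline transporter-like protein, fell by 0.72 ± 0.06 on the log2 scale, to a mean of 320 ± 19.3 in the cKO, against 528 ± 25.3 in the controls (SD, n = 4 each). Pcyt1b, an enzyme of phosphatidylcholine synthesis, fell by 0.17 ± 0.04 (adjusted p = 0.0257), and this call ended when cKO replicate 2, cKO replicate 4, control replicate 3 or control replicate 4 was left out (adjusted p of at most 0.0955). The authors' deposited table did not call it (adjusted p = 0.151). Among the members that did not pass, the choline kinase gene Chka had a log2 fold change of -0.13 ± 0.06 and the ATP citrate lyase gene Acly of 0.00 ± 0.03. The butyrylcholinesterase gene Bche, the other enzyme that splits acetylcholine, was at 45.5 ± 7.42 in the cKO and 34.8 ± 5.12 in the controls, a log2 fold change of 0.38 ± 0.18 that did not pass (adjusted p = 0.280).

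Among regulators of cholinergic neuron development, 2 of 11 tested members fell and 1 rose, where 3.78% and 2.87% of all tested genes did. Their median log2 fold change was -0.54. The 1 that rose was Isl1, the gene targeted in the cKO, whose value per gene does not show the deletion. Zic1 and Fgf8 fell as well in the authors' deposited table, which makes 4, where 6.55% of all genes were called in either direction. Zic4, a zinc finger transcription factor, had values of 22, 26, 28 and 22 in the cKO and of 60, 119, 48 and 87 in the controls. It fell by 1.56 ± 0.25 on the log2 scale (adjusted p = 0.00247).

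Lhx8, the LIM-homeodomain factor of the cholinergic lineage, had values of 142, 204, 166 and 313 in the cKO and of 246, 402, 285 and 239 in the controls. The groups overlapped through cKO replicate 4. The log2 fold change of Lhx8 was -0.54 ± 0.23 (limma adjusted p = 0.224), and it passed without cKO replicate 4, at -0.76 (adjusted p = 0.0428). The medial ganglionic eminence is the neighbouring zone that also yields cholinergic interneurons. Of 11 tested markers of its interneurons 3 fell and 1 rose, where 3.78% and 2.87% of all tested genes did. Npy, Nos1 and Cxcr4 had log2 fold changes of -0.71 ± 0.13, -0.59 ± 0.14 and -0.44 ± 0.08, and Maf of 0.31 ± 0.05 (SE). The Nos1 call held in 3 of 8 fits without 1 library. The summed values of the 11 markers were 17550 to 19408 in the cKO and 17787 to 19988 in the controls. Gad1 was the largest part of these sums, at 7245.5 ± 227 in the cKO and 6842.5 ± 404 in the controls (SD), so they say little of the other markers.

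**Figure D5:**
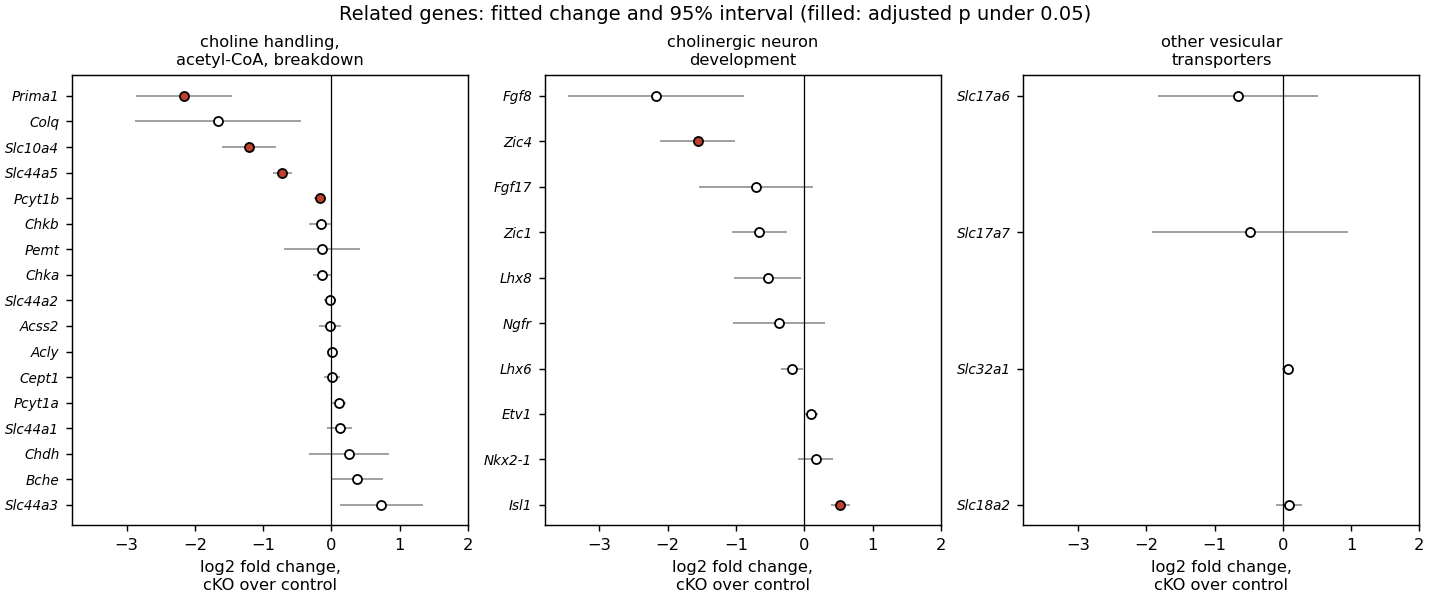
Fitted log2 fold changes (cKO over control, value + 1) with 95% intervals of tested members of 3 related gene lists, sorted by size, with filled points for an adjusted p under 0.05. Filled points are Prima1, Slc10a4, Slc44a5 and Pcyt1b on the left, Zic4 and Isl1 in the middle, and none among the 4 vesicular transporters on the right.

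Other genes came close to the members in how far their libraries lay from the control mean. Likeness was the root mean square difference, over 8 libraries, of the log2 value less its control mean, among 13677 genes with a mean value of at least 20. For the genes that fell it mainly reflects a fall of like size, and it does not show a shared course within a group. For Chat the nearest was the substance P precursor gene Tac1 (0.51), then the orphan receptor gene Gpr151 (0.556). Chat and Tac1 had log2 fold changes of -2.85 and -2.93, but control replicate 4 was the lowest control for Chat (9) and the highest for Tac1 (2134). Close to Slc18a3 stood the bombesin receptor gene Brs3 (0.723). The neuropeptide Y receptor gene Npy1r was nearest to both Slc5a7 (0.366) and Gbx2 (0.361), and was at 116 ± 32.2 in the cKO and 443 ± 50.3 in the controls (SD, n = 4 each). The adrenergic receptor gene Adra2b came second for both Slc5a7 (0.391) and Slc17a8 (0.46), Gm10406 first for Slc17a8 (0.338) and Frmd6 second for Gbx2 (0.403). Near Ache stood Galnt14 (0.0548) and Pde3a (0.0739), and near Gbx1 1810044D09Rik (0.437) and the homeobox gene Nkx6-2 (0.5).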

How the data were processed

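Polyadenylated RNA of 8 LGE libraries (4 cKO, 4 control) was measured. STAR, featureCounts, edgeR and the build mm10 are named in the submitters' processing notes. For versions and counting options, nothing was given in the sources used here. What was deposited in columns named as raw is a score rather than counts: values were scaled (upper quartiles within 0.677%) and adjusted before rounding, since 1 within-group direction had almost no variation (singular value 0.0002413, the next 0.04327). SDs, SEs and p-values, those of exact permutations included, may therefore be too small. The headers name the deposited RPKM values only as such. For the members, the RPKM values match these values divided by an implied gene length and the library sum. The log2 fold change and the p-value, raw and adjusted, that the authors deposited per gene served as an alternative. The sign of that log2 column is cKO over control, although its name has the other order.

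Values were taken as log2(value + 1), a scale that understates the change of low genes, genes at 1 or more in at least 4 libraries were kept, and groups were compared with limma 3.58.1 (mean trend, R 4.3.3), adjusted by Benjamini-Hochberg at 0.05. The procedure was also run on simulated data. There, changed genes in the cKO were given less scatter at low values than unchanged genes, so recovery of low genes such as Chat was not checked. Coordinates are GENCODE's for GRCm38, the assembly of mm10. Start regions were read from RefSeq's table for GRCm38.p6, which holds 6 of the 7 genes.

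The members and lists were chosen with earlier results of these data known. Named were the members, listed genes that passed, Lhx8, Isl1 and Bche, neighbours, and the 2 nearest genes by likeness, except that 1 gene is not reported here. Chka, Acly, the 4 vesicular transporters, Zic1, Fgf8, Colq, Hba-a1, Hba-a2 and Hbb-bt were named after their values were seen. So were the named interneuron markers and the named markers of the thalamus and habenula. Alternatives varied scaling, pseudocount, filter, unit, trend, the missing direction, the replicate block and the libraries used.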

Additional observations from a re-analysis of the deposited data

Results flagged for a closer look

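Among 42 groups of 4 values looked at, 2 held a library far from the other three of its group, and chance flags about 5% of groups. Pcyt1b had a value of 2426 in cKO replicate 2, while the remaining cKO libraries had 2633 to 2648. The log2 ratio of Ache to Slc5a7 was 1.31 in control replicate 2, against 1.61 to 1.65 in the other controls, in the library where Slc5a7 was highest at 151.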

How the results depend on the processing

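Chat, Slc18a3, Slc5a7, Slc17a8 and Gbx2 kept their fall and their call under each alternative that could be fitted, and in every fit that left out 1 library 5 of the 7 genes fell. Requiring a mean of at least 20 left 3 fallen genes, because that filter removes Chat, Gbx1 and Gbx2. Ache stayed above the threshold throughout. Gbx1 reversed to -0.11 in the authors' deposited table, and ranged from -0.063 (without cKO replicate 4) to 0.74 when 1 library was left out. Over all tested genes, 610 were called (216 risen, 394 fallen) without control replicate 3 and cKO replicate 4, and 290 risen with the missing direction charged to the model. Leaving out 1 library called 659 to 959 genes, 256 to 414 of them risen and 403 to 556 fallen. Of the regulator list, 4 members fell in the authors' deposited table, where 6.55% of all genes were called in either direction. The replicate numbers were not shown to pair the libraries: same-numbered libraries had correlations of 0.06, 0.13, -0.05 and -0.49 in their deviations from the group means. With the replicate block 4 regulators fell, with Zic1 and Fgf8 added, 1199 genes were called, and no call among the 7 genes changed.

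With a pseudocount of 5 the ratio differences that newly passed were 1.81 for Ache to Slc5a7, 1.08 for Chat to Slc18a3 and -1.73 for Gbx2 to Gbx1, and with RPKM 1.54, 1.21 and -1.74. The difference for Chat to Slc18a3 was 0.63 with a pseudocount of 1, and its size depends on the pseudocount, since Chat was at 2 or less in the cKO. Slc17a8 to Slc5a7 reversed to 0.14 with RPKM. Without 1 library, the differences ran from -0.51 to 0.10 for Slc17a8 to Slc5a7, -1.47 to -0.68 for Slc18a3 to Slc5a7, 1.68 to 2.15 for Ache to Slc5a7 -2.52 to -1.94 for Gbx2 to Gbx1 and 0.43 to 0.85 for Chat to Slc18a3. Without cKO replicate 3 the exact test gave an adjusted p of 0.0476 for Slc18a3 to Slc5a7 (-1.47), Ache to Slc5a7 (1.68) and Gbx2 to Gbx1 (-2.46), and in no other fit without 1 library did a ratio pass. The 3 against 3 libraries left without control replicate 3 and cKO replicate 4 gave values with no test. The cause was not tested. Depth is unknown, so how far values near 0 are limited by counting cannot be given.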

Other observations

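Some genes of the cholinergic lists did not pass the limma test and were called in the authors' deposited table. Colq, the collagen tail of acetylcholinesterase at the neuromuscular junction, had values of 0, 0, 2 and 0 in the cKO and of 4, 5, 1 and 4 in the controls (limma adjusted p = 0.115, and 0.026 in the authors' deposited table). Fgf8, a growth factor of forebrain patterning, had values of 3, 1, 0 and 0 in the cKO and of 14, 4, 3 and 10 in the controls (limma adjusted p just above 0.05, and 4.76e-05 in the authors' deposited table). Zic1 had values of 209, 268, 316 and 332 in the cKO and of 355, 631, 384 and 423 in the controls, without overlap, at a limma adjusted p of 0.0546, and 0.0132 in the authors' deposited table.

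Some libraries stood high or low across several of the 7 genes. Control replicate 2 was the highest control in 5 of the 7 (Chat, Slc18a3, Slc5a7, Ache and Gbx2), and also in Lhx8, Zic4, Prima1 and Slc10a4. Slc44a5, Pcyt1b, Isl1 and Bche were highest in other controls. The thalamus and habenula marker sum was highest in control replicate 2 as well, at 3150 against 2505 to 2708 in the other controls. Without that library all 5 calls held. Gbx1 was highest within its group in cKO replicate 4 (31) and control replicate 3 (15), the same 2 libraries that held the lowest pallial marker sums, at 615 and 144. Without both libraries the log2 fold change of Gbx1 was 0.19 (limma adjusted p = 0.894).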
